A study of Mus musculus with 8 samples.

Results

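The genes described here are 46 genes of mitosis, the spindle and the centromere, followed through RNA-seq of mouse embryos that lack Lin28a and Lin28b. They were chosen by symbol with earlier results of these data known, so the counts below are not those of an independent list. All 46 had a row among the 24420 symbols of total RNA, and 29 of them had a row among the 5804 symbols of polysomal RNA, the RNA bound by several ribosomes at once. They were taken in 4 groups by role: 10 genes of cyclin-kinase control, 20 of the spindle and kinetochore, 10 of the checkpoint and anaphase, and 6 of mitotic chromosome structure, a group added for members that the other names do not cover. Brain and neural tube were taken at embryonic day E11.5 from wild-type embryos (WT) and from embryos with the genotype Lin28a-/-;b-/- (dKO), and each of the 2 genotypes has 2 total RNA and 2 polysomal libraries. The dKO lacks both genes in the whole embryo as far as the labels say, since no Cre or promoter is named. Nothing in the labels ties a replicate to an embryo or a litter, so a p-value here reflects only how far these libraries spread, which may be technical.

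Entry into mitosis is driven by cyclin-dependent kinase 1 with its A- and B-type cyclins, and by the Aurora and Polo-like kinases. Motor proteins and bundling factors then build the spindle, kinetochores tie the centromeres to its microtubules, and condensins compact the chromosomes. The spindle checkpoint holds back the anaphase-promoting complex until every chromosome is attached, after which cyclin B and securin are destroyed. In the early neural tube most of this machinery sits in dividing neuroepithelial progenitors, and many of its genes are switched on together late in the cell cycle through promoters with a CHR element, bound by MuvB complexes, and CCAAT boxes, bound by NF-Y. LIN28A and LIN28B bind RNA; they keep let-7 microRNA precursors from maturing and also contact many messenger RNAs directly.

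Promoter sequences are shown because these genes are best known for being controlled together. The 4 printed are of genes that fell, rose or did not pass the test in dKO, and they were chosen after their values were seen. Each is the 250 bases before the RefSeq start on GRCm38.p6, read 5′ to 3′ on the gene's own strand, which is the minus strand for all 4, with matches to the CHR hexamer TTTGAA and the CCAAT box on either strand in capitals. Cdc20 (chr4:118437344-118437593) encodes the activator of the anaphase-promoting complex, Cdk1 (chr10:69352913-69353162) the mitotic kinase, Ccnb2 (chr9:70421555-70421804) a B-type cyclin and Mki67 (chr7:135716380-135716629) the Ki-67 protein that coats mitotic chromosomes.
Cdc20: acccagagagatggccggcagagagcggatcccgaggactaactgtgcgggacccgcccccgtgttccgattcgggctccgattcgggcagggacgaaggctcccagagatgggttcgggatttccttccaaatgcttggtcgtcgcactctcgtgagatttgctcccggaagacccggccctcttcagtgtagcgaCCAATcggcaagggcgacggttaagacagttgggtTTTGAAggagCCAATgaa
Cdk1: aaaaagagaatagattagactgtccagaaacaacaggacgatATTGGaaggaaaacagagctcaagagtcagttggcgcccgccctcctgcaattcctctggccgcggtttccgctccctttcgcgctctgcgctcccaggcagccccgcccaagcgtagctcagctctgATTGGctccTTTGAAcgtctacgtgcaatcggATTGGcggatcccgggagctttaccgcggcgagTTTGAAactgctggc
Ccnb2: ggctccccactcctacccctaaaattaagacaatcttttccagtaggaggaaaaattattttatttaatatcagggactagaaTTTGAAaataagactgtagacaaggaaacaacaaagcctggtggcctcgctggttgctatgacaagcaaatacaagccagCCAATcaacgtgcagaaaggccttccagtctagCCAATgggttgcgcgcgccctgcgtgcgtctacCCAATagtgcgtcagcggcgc
Mki67: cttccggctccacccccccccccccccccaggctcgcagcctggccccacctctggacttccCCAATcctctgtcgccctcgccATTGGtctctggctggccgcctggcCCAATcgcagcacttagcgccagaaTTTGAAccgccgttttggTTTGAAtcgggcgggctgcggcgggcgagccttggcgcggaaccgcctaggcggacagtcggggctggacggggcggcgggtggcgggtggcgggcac
In total RNA Cdc20 and Cdk1 fell in dKO, Mki67 rose and Ccnb2 did not pass the test, with values given below. Any link between these motifs and the changes was not tested. Another CHR hexamer of Ccnb2, at base 5 after the start, lies outside the printed stretch. A RefSeq promoter was matched for 38 of the 46 genes, taken as 250 bases before to 50 after the start. The CHR hexamer was in 26 of the 38 (68.4%), against 20.2% of 27025 promoters and 14.0% of the 10824 matched genes with at least 40 counts in total RNA. A CCAAT box was in 29 (76.3%), against 41.1% and 42.7%, and both motifs were in 23 (60.5%), against 9.0% and 6.9%. All 5 matched genes of mitotic chromosome structure held both motifs. Aunip, Nusap1, Nuf2, Birc5, Pttg1 and Mad2l1 held neither in this window.

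**Figure D1:**
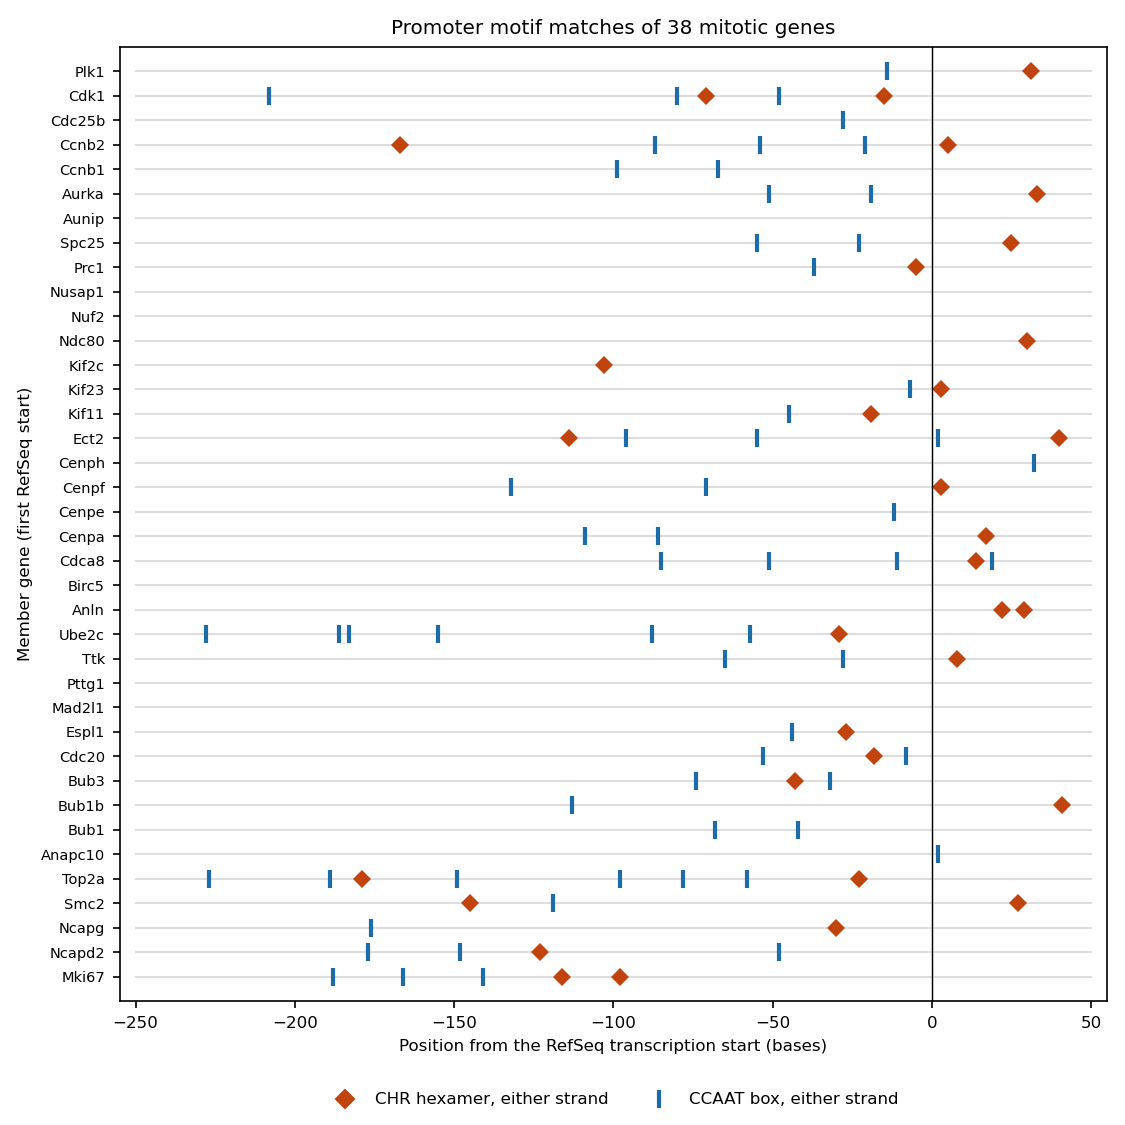
Positions of CHR hexamers (diamonds) and CCAAT boxes (bars) on either strand, in bases from the RefSeq transcription start, in the promoters of the 38 matched genes; each row is 1 gene (its first RefSeq start) and the grey line is the window searched. Both motifs crowd near the start, and 23 rows carry both.

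The let-7 family was looked at because its maturation is what LIN28 proteins block. Its mature sequence is given with the seed (bases 2 to 8) in capitals, and the sites with the bases that pair with the seed, or face its first base, in capitals. The sites are those of Bub3, the only 8-base match, and of Cdk1 and Kif11, each in the 3′ UTR of the GENCODE M21 (GRCm38) transcript and read 5′ to 3′.
let-7a-5p: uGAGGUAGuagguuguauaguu
Bub3: tgtggactttactaCTACCTCAttgctt
Cdk1: acctcagtttaccagTACCTCAgcctca
Kif11: ccaaggctgtttccCTACCTCtaaccag
The matches start at base 272 of the 2439-base 3′ UTR of Bub3 on chromosome 7, base 965 of 3352 of Cdk1 on chromosome 10 and base 355 of 1469 of Kif11 on chromosome 19. A match of at least 7 bases was in the 3′ UTR of 8 of the 46 genes (17.4%), against 17.2% of 13653 tested genes, and the median 3′ UTR was 602 bases in the 46 and 1224 in all. The 8 genes are Cdk1, Nusap1, Kif11, Spc24, Birc5, Bub3, Mad2l1 and Espl1. In total RNA 4 of the 8 fell and none rose, with a median log2 fold change of -0.21, and 19 of the other 38 fell and 2 rose, with a median of -0.15. Of the 13653 tested genes 2291 fell and 2034 rose.

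The targeted genes checked the labels. Lin28a stood at 73.3 and 72.2 CPM (counts scaled to library size) in WT total RNA, and dKO gave 6.55 and 7.73, a log2 fold change of -3.35 ± 0.12 (SE). Lin28b had WT levels of 128 and 123 CPM, and its dKO levels were 48.0 and 55.1 (-1.28 ± 0.07). The total RNA table summed to between 15060560 and 15768767 counts per library. The polysomal table lists only part of what was sequenced, so its sums do not give depth; they were 14874143 and 15414712 for WT and 3740980 and 5164982 for dKO. The dKO polysomal replicates stood apart from each other, with a chi-square per degree of freedom of 24.6 against 2.75 to 3.02 in the other pairs. Summed over the marker lists, red cell genes stood at 4413 to 4480 CPM in WT and 2695 to 2699 in dKO total RNA and 8 of 8 tested fell (Hba-a1 and Hba-a2 were under 1 CPM throughout), neural progenitor genes at 4380 to 4415 and 3975 to 4019 (4 of 11 fell, 1 rose), neuron genes at 4501 to 4514 and 4353 to 4355 (3 of 10 fell, 4 rose), mesenchyme genes at 620 to 658 and 560 to 569 (4 of 8 fell), endothelial genes at 157 to 160 and 158 to 165 (none of 7 called), and macrophage genes at 45.4 to 51.6 and 41.9 to 53.3 (1 of 8 fell, 1 rose). Beside these counts, 16.0% of all genes tested fell and 14.7% rose. The part of these lists in the results below was not tested.

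In WT total RNA, level per kilobase of transcript ranked Ccna2 (146 CPM per kb), Cenpa (140) and Spc25 (117) highest and Anapc10 (3.01) lowest, and the same 3 genes led in dKO, at 142, 131 and 121. Ccna2 encodes cyclin A2, Cenpa the histone that marks centromeres and Spc25 a subunit of the kinetochore's Ndc80 complex. Aunip moved from place 41 to place 46 of 46, and Mki67 from place 28 to place 16. Summed over all 46 genes, total RNA held 5047 and 5065 CPM in WT and 4617 and 4643 in dKO. In bulk tissue, fewer dividing cells and less RNA per dividing cell cannot be told apart.

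The first comparison asks how loss of Lin28a and Lin28b changes the RNA of mitotic genes. In total RNA 23 of the 46 genes fell in dKO and 2 rose by edgeR's quasi-likelihood test at a Benjamini-Hochberg adjusted p under 0.05, while of all 14594 genes tested 16.0% fell and 14.7% rose, or 30.7% in either direction. The falls were small: their median was 1.29-fold, from 1.09-fold (Top2a) to 3.48-fold (Aunip). The median log2 fold change of the 46 was -0.16, against 0.00 over all genes, and 37 of the 46 were below 0. Libraries of the 2 genotypes did not overlap for 35 of the 46 genes, and for all 29 of those listed on polysomes. The share without overlap over all genes was not computed, so a lack of overlap is given below only as a description. By role 5 of 10 cyclin-kinase genes fell and 1 rose (median -0.24), 11 of 20 spindle and kinetochore genes fell and none rose (median -0.20), 4 of 10 checkpoint and anaphase genes fell and none rose (median -0.15), and 3 of 6 chromosome structure genes fell and 1 rose (median -0.12). The count of falls went from 17 to 23 when 1 library was left out.

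**Figure D2:**
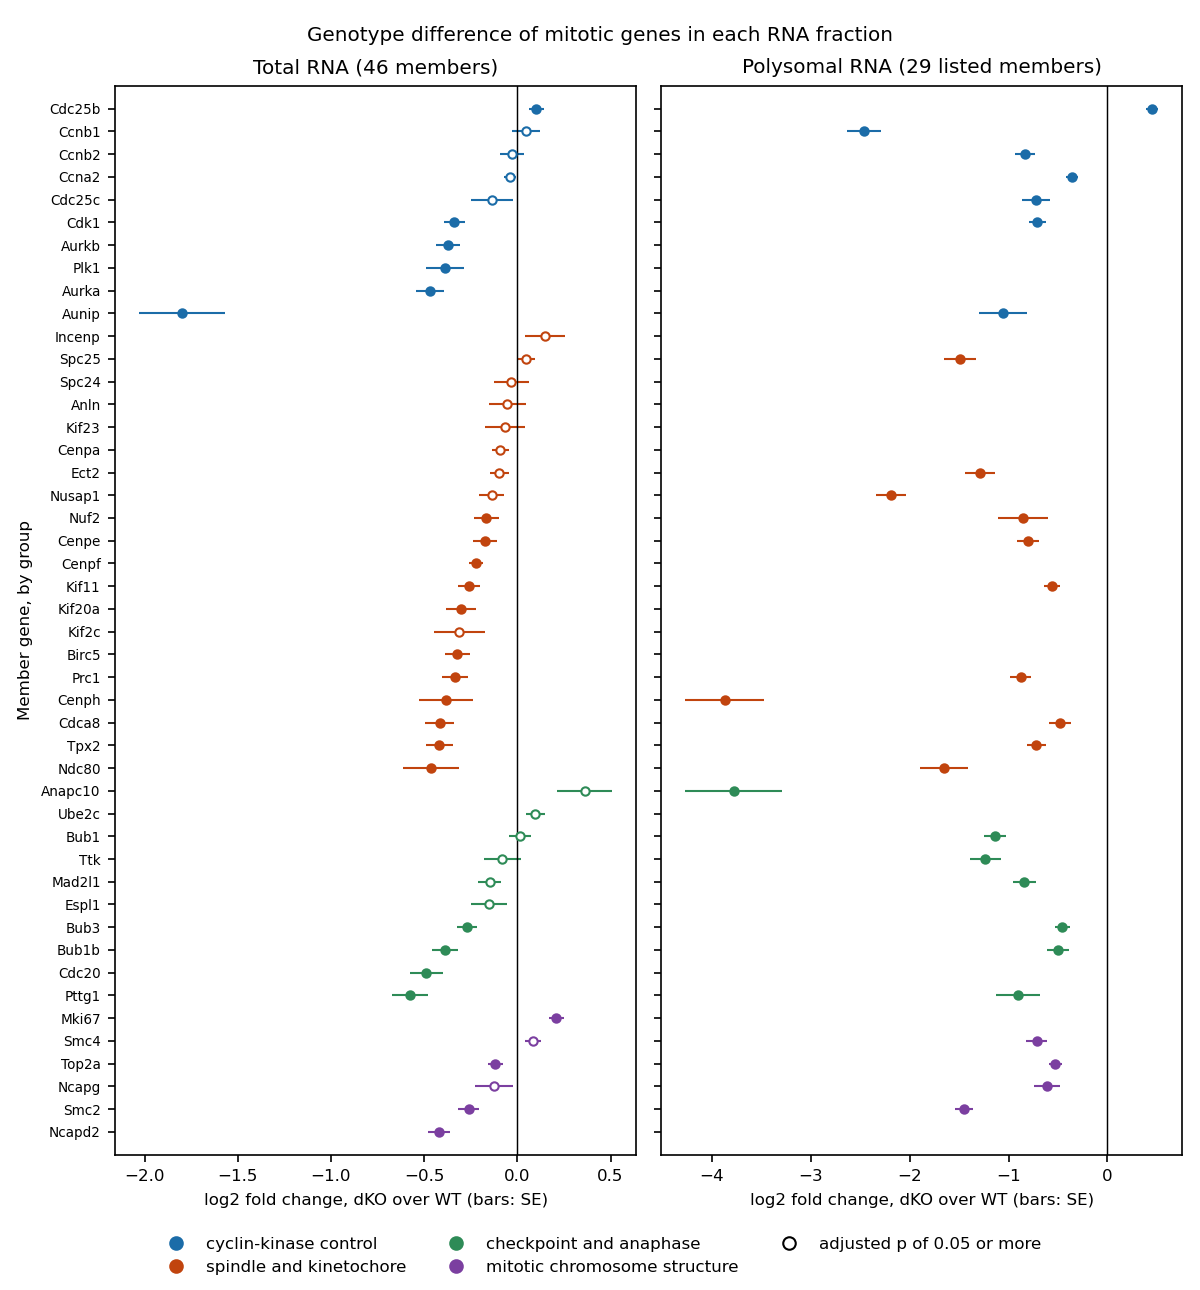
Log2 fold change of dKO over WT (points, with bars of 1 SE) for each gene in total RNA (left, 46 genes) and polysomal RNA (right, the 29 listed genes), coloured by group; filled points have an adjusted p under 0.05 and the axes of the panels differ in range. Most points lie left of 0 in total RNA by less than 0.6, and in polysomal RNA 28 of 29 lie left of 0.

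Among the genes of cyclin-kinase control the kinases fell and the cyclins did not pass the test. Aunip, whose product binds Aurora A at centrosomes and spindle poles, stood at 9.94 and 13.3 CPM in WT and 3.44 and 3.22 in dKO. Its log2 fold change was -1.80 ± 0.23 (adjusted p = 2.08e-13), the largest fall of the 46. Aurka, the Aurora A kinase of centrosomes and spindle poles, went from 72.9 and 81.5 CPM in WT to 51.9 and 59.7 in dKO (-0.47 ± 0.08). Aurkb, the kinase of the chromosomal passenger complex, went from 109.4 and 109.6 to 80.1 and 89.1 (-0.37 ± 0.06). These kinases were thus 1.38-fold and 1.29-fold lower. Plk1, the Polo-like kinase, stood at 40.1 and 46.5 CPM in WT and 33.6 and 32.5 in dKO (-0.39 ± 0.10, adjusted p = 0.000822), and without WT replicate 2 its adjusted p was 0.0956. Cdk1 stood at 148.5 and 149.4 in WT and 121.2 and 114.6 in dKO (-0.34 ± 0.05). Its cyclins gave no call: Ccnb1 had WT levels of 63.9 and 67.9 and dKO levels of 67.8 and 68.2, a difference of 0.05 ± 0.08, and Ccna2 and Ccnb2 differed by -0.04 ± 0.03 and -0.03 ± 0.06, with overlapping libraries. Cdc25b, a phosphatase that activates CDK1 and has a known role in neural progenitors, stood at 247.3 and 245.8 in WT and 258.4 and 270.4 in dKO. That rise of 0.10 ± 0.04 had an adjusted p of 0.0452 and was lost without any 1 of the 4 libraries (adjusted p from 0.0502 without dKO replicate 1 to 0.406 without dKO replicate 2).

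Among spindle and kinetochore genes Ndc80, the kinetochore subunit that grips microtubules, stood at 17.6 and 19.5 CPM in WT and 13.2 and 13.7 in dKO. The groups did not overlap, and the change was -0.46 ± 0.15 (adjusted p = 0.00843), but leaving out WT replicate 2 (adjusted p = 0.0953) or dKO replicate 1 (0.0759) ended the call. Tpx2, which nucleates spindle microtubules and activates Aurora A, went from 92.5 and 84.1 to 64.5 and 67.6 CPM (-0.42 ± 0.07). Cdca8, the borealin subunit of the chromosomal passenger complex, went from 71.8 and 74.6 to 52.3 and 57.3 (-0.42 ± 0.08). Neither overlapped between the genotypes, which was also so for Cenpa and Spc25, genes without a call. Cenph, an inner kinetochore subunit, stood at 19.2 and 18.9 in WT and 14.4 and 14.8 in dKO (-0.38 ± 0.14, adjusted p = 0.0298), and without each library in turn its adjusted p lay between 0.0743 (WT replicate 2) and 0.149 (dKO replicate 1). The midzone bundler Prc1 (-0.33), the survivin gene Birc5 (-0.32), the cytokinesis motor Kif20a (-0.30), the bipolar spindle motor Kif11 (-0.26) and the kinetochore genes Cenpf (-0.22), Cenpe (-0.17) and Nuf2 (-0.17) also fell; the Nuf2 call was lost without dKO replicate 1, dKO replicate 2 or WT replicate 2 (adjusted p from 0.134 to 0.33), that of Cenpe without dKO replicate 1 or WT replicate 2, and that of Kif11 without WT replicate 2. The most abundant genes of the group without a call were Cenpa (205 CPM in WT and 192 in dKO, -0.09 ± 0.05) and Spc25 (179 and 185, 0.05 ± 0.05).

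In the checkpoint and anaphase group 4 genes fell. Pttg1, which encodes securin, the inhibitor of separase, stood at 48.3 and 55.8 CPM in WT and 29.4 and 40.5 in dKO (-0.57 ± 0.10), and by DESeq2 its adjusted p was 0.0664. Without dKO replicate 1 its change was -0.36, and without dKO replicate 2 it was -0.82. Cdc20 went from 56.4 and 61.4 to 44.9 and 39.1 (-0.49 ± 0.09). Bub1b, the BubR1 gene of the checkpoint complex, went from 93.9 and 89.4 to 72.0 and 68.2 (-0.39 ± 0.07), and Bub3, its partner at kinetochores, from 147.8 and 152.7 to 127.6 and 121.8 (-0.27 ± 0.05). None of these 4 overlapped between genotypes, which was also so for Ube2c, a gene of the group without a call. Anapc10, a substrate-binding subunit of the anaphase-promoting complex, had WT levels of 13.6 and 14.0 and dKO levels of 20.4 and 15.1, a difference of 0.36 ± 0.15 that missed the threshold (adjusted p = 0.0504) and passed it without dKO replicate 2 (adjusted p = 0.0118). Ube2c, the ubiquitin-conjugating enzyme of that complex, and the checkpoint kinase gene Bub1 gave no call (0.10 ± 0.05 and 0.01 ± 0.06).

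Chromosome structure genes went both ways. Ncapd2, a condensin I subunit, stood at 131.6 and 127.3 CPM in WT and 93.7 and 99.7 in dKO (-0.42 ± 0.06). Smc2, the core subunit of both condensins, went from 130.2 and 127.2 to 105.1 and 109.5 (-0.26 ± 0.06). Top2a, the topoisomerase that untangles sister DNA, changed by -0.12 ± 0.04, and leaving out WT replicate 1 (adjusted p = 0.28) or dKO replicate 1 (0.162) ended that call. Mki67 rose: it stood at 237 and 243 in WT and at 285 and 270 in dKO, without overlap (0.21 ± 0.04, adjusted p = 3.62e-06), and its call held without each library. Smc4, the other condensin core subunit, stood 0.08 ± 0.04 higher and gave no call.

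**Figure D3:**
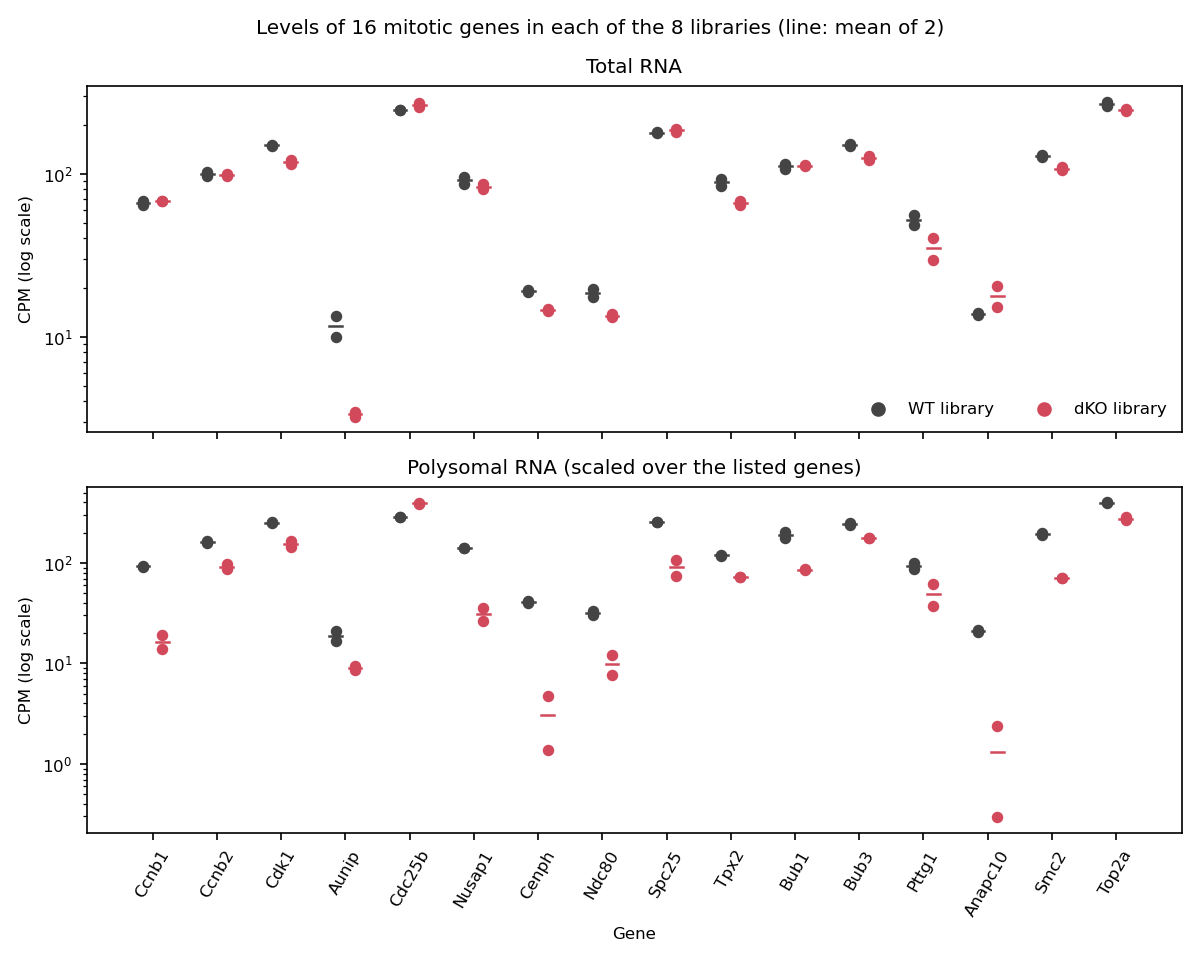
Level in CPM (log axis) of 16 of the genes in each library of total RNA (top) and polysomal RNA (bottom, scaled over the listed genes), with WT libraries in grey, dKO libraries in red and a line at the mean of 2. Genotypes differ little in total RNA except for Aunip, whereas in polysomal RNA Ccnb1, Nusap1, Cenph and Anapc10 drop far below WT.

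A wider list of 112 other mitotic genes, 107 of them tested, gave 34 falls and 4 rises in total RNA, with a median of -0.11. Of all 14594 genes tested 16.0% fell and 14.7% rose, the share to hold beside each count below. Of 20 other genes of mitotic entry 6 fell, such as Ccnf (cyclin F, -0.47 ± 0.07) and Cdc25a (-0.36 ± 0.07), and 1 rose, Foxm1, a transcription factor of late cell cycle genes (0.17 ± 0.05). Of 45 other spindle, kinetochore and cytokinesis genes 10 fell, such as Cenpl (-0.49 ± 0.10) and the chromokinesin Kif22 (-0.49 ± 0.11), and 1 rose, the centromere gene Cenpm (0.34 ± 0.10). Of 26 other checkpoint and anaphase genes 12 fell, led by the catalytic-core gene Anapc2 (-0.55 ± 0.07), and 2 rose, Mad2l2 (0.28 ± 0.11) and Anapc5 (0.09 ± 0.03). Of 16 other condensin and cohesin genes 6 fell and none rose, led by the condensin I gene Ncaph (-0.69 ± 0.09).

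The second comparison asks the same of RNA on polysomes. Of the 29 listed genes 28 were lower in dKO and 1, Cdc25b, was higher, with a median log2 fold change of -0.84 against -0.35 over all 5777 genes tested. The background sets the reading of that count: of those genes 52.5% were called lower, 47.2% higher and 99.7% in either direction. The table seems to hold only genes that differ by genotype, as no gene with a mean of at least 100 counts has a log2 ratio of summed counts between -2.04 and -1.71, with 2927 genes below that gap and 2514 above. All 29 genes reach that mean, and 28 lie below the gap and Cdc25b above it. The 17 genes without a row are Plk1, Aurka, Aurkb, Kif20a, Kif23, Kif2c, Cenpa, Cenpf, Spc24, Birc5, Incenp, Anln, Cdc20, Ube2c, Espl1, Mki67 and Ncapd2, and their polysomal RNA was not analysed here. In total RNA 8 of these 17 fell and 1 rose, and 15 of the 29 listed fell and 1 rose. The shares over all genes tested there were 16.0% and 14.7%.

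Transcript GC content moved with the polysomal difference. Over 5741 listed genes the log2 fold change rose with GC (Spearman's rho = 0.773, a description across genes that share the same 4 libraries), while in total RNA rho was -0.0956. The 29 genes have a median GC content of 43.9% against 49.5% for all listed genes, and Cdc25b, the only one that was higher, has the highest of the 29 at 54.2%. After a loess adjustment for GC, 15 of the 29 were lower and 6 higher, against 27.1% lower and 19.0% higher over all genes tested. By role 6 of 7 cyclin-kinase genes and 6 of 11 spindle and kinetochore genes were lower after it, against 2 of 7 checkpoint and anaphase genes and 1 of 4 chromosome structure genes. The 6 called higher after it are Ncapg (0.47), Bub3 (0.43), Kif11 (0.33), Smc4 (0.32), Top2a (0.27) and Ccna2 (0.18), and Cdc25b was then lower (-0.27). Of the genes not described further, Tpx2 (-0.72 as reported and -0.42 adjusted), Cdca8 (-0.48 and -1.03) and Cdc25c (-0.72 and -0.43) were lower either way. The Cdca8 call as reported was lost without WT replicate 1 (change -0.457), and that of Cdc25c without WT replicate 2 (-0.667). Prc1 (-0.88 and -0.28), Cenpe (-0.80 and 0.02) and Mad2l1 (-0.84 and 0.20) were lower only as reported. The part of GC content in the polysomal results was not tested further, so the GC-adjusted value stands here or beside each gene described on polysomes below. Scaling also moves these calls: with the listed genes set to their median in total RNA, 18 of the 29 were lower and 1 higher. Over all genes tested 33.3% were then lower and 47.4% higher.

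**Figure D4:**
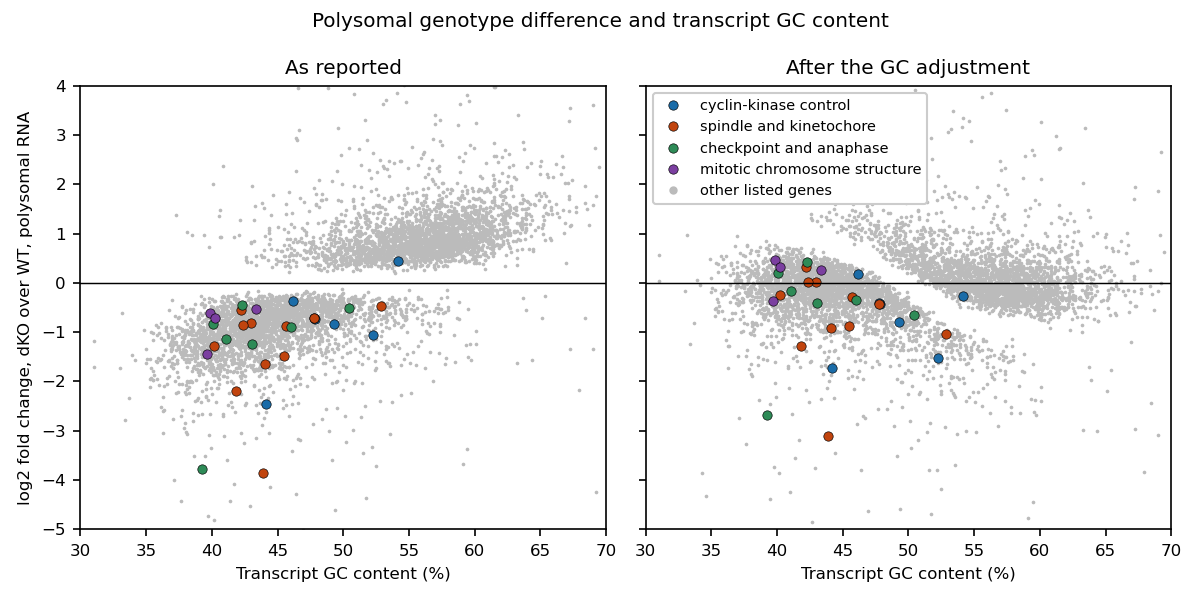
Log2 fold change of dKO over WT in polysomal RNA against transcript GC content (percent), as reported (left) and after the GC adjustment (right); grey dots are the other listed genes and coloured points the 29 mitotic genes by group. On the left the mitotic genes sit in the lower, GC-poor band apart from Cdc25b; on the right 15 are lower, 6 higher and 8 not called.

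Among the cyclin-kinase genes on polysomes, Ccnb1, which encodes cyclin B1, had 1472 and 1487 WT counts but 47 and 97 dKO counts, or 93.5 and 91.2 CPM against 13.8 and 19.1. Both dKO libraries lay far below both WT libraries, and the change was -2.46 ± 0.17 (adjusted p = 0.000128), -1.73 after the GC adjustment. Ccnb2 went from 165.0 and 159.5 CPM to 96.8 and 86.2 (-0.83 ± 0.10, and -0.79 adjusted for GC), and Ccna2 from 725 and 702 to 544 and 568 (-0.36 ± 0.06, and 0.18 adjusted for GC). The 3 cyclins, without a call in total RNA, were lower here, Ccna2 only before that adjustment. All 3 lie below the gap described above, so being lower as reported follows from the listing. Cdk1 changed by -0.71 ± 0.09 (-0.41 adjusted for GC). Aunip stood at 16.7 and 20.8 CPM in WT and 9.41 and 8.66 in dKO (-1.06 ± 0.24, and -1.52 adjusted for GC), and leaving out WT replicate 1 (adjusted p = 0.0533) or WT replicate 2 (0.157) ended the call. Cdc25b rose from 284.7 and 286.2 to 398.8 and 382.2 (0.45 ± 0.06, and -0.27 adjusted for GC).

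Of the 29 genes, Cenph of the kinetochore and Anapc10 of the anaphase-promoting complex fell most on polysomes. Cenph had 625 and 676 WT counts but 16 and 7 dKO counts (39.7 and 41.5 CPM against 4.71 and 1.38), a change of -3.87 ± 0.40 (-3.12 adjusted for GC). Anapc10 had 335 and 332 WT counts but 1 and 12 dKO counts, a change of -3.78 ± 0.49 (-2.69 adjusted for GC). These are the 2 largest falls of the 29, 14.6-fold and 13.7-fold, and the low dKO counts leave their size poorly fixed: without dKO replicate 2 the Anapc10 change was -6.13, resting on 1 count. Nusap1, a spindle microtubule bundler, went from 141.9 and 142.2 CPM to 26.2 and 35.2 (-2.19 ± 0.15, and -1.28 adjusted for GC). Of the Ndc80 complex, Ndc80 changed by -1.65 ± 0.25 and Spc25 by -1.49 ± 0.16 (-0.91 and -0.88 adjusted for GC), whereas Nuf2 changed by -0.86 ± 0.25 and by 0.01 after the adjustment. The dKO libraries of Nuf2 lay far apart, at 60 and 111.6 CPM against 155.7 and 160.3 in WT, and its change was -0.50 without dKO replicate 1 and -1.43 without dKO replicate 2. Spc25 went from 258.2 and 256.5 CPM to 74.4 and 106.7, and its total RNA gave no call. It too lies below the gap described above. Ect2, the exchange factor that starts the cleavage furrow, changed by -1.29 ± 0.15 and by -0.25 after the adjustment, which was not called.

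Among checkpoint kinases Ttk (-1.24 ± 0.16) and Bub1 (-1.14 ± 0.11) were lower on polysomes, and neither was called after the GC adjustment (-0.41 and -0.16). Pttg1 stood at 100 and 88.0 CPM in WT and 37.4 and 61.4 in dKO (-0.90 ± 0.22), and was not called after it (-0.35). Its change was -0.61 without dKO replicate 1 and -1.36 without dKO replicate 2. Bub1b changed by -0.50 ± 0.11 and by -0.66 after the adjustment, and leaving out WT replicate 2 ended the call as reported (adjusted p = 0.0712). Of the condensin genes, Smc2 went from 197.9 and 191.7 to 71.2 and 71.5 CPM (-1.45 ± 0.09, and -0.37 adjusted for GC). Smc4 (-0.72 ± 0.11) and Ncapg (-0.61 ± 0.13) were lower as reported and higher after the adjustment, and the Ncapg call as reported was lost without either WT library.

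Of the other mitotic genes 58 were listed, of which 47 were lower and 11 higher as reported, in a table with 52.5% lower and 47.2% higher. After the GC adjustment 14 were lower, 11 higher and 33 not called, beside 27.1% lower and 19.0% higher over all genes tested. The falls included the centromere genes Cenpk (-3.05 ± 0.30, and -1.72 adjusted for GC) and Cenpq (-1.76 ± 0.15, and -0.94), and Cdc27, a core subunit of the anaphase-promoting complex (-1.56 ± 0.07, and -0.49). The rises included Cenpm (1.62 ± 0.22, and 0.74 adjusted for GC) and 2 other subunits of that complex, Anapc16 (1.06 ± 0.09, and 1.02) and Anapc11 (1.04 ± 0.11, and 0.48). Anapc2 (0.79 ± 0.08, and -0.03) and the condensin II gene Ncaph2 (1.01 ± 0.07, and 0.15) were higher as reported and not called after the adjustment.

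The third comparison asks whether the genotype difference on polysomes differed from that in total RNA, as an interaction over all 8 libraries. Of the 29 genes 22 had a lower difference on polysomes, 1 a higher one (Cdc25b, 0.39 ± 0.07) and 6 gave no call, against 45.8% lower and 43.7% higher (89.5% either way) of 5780 genes tested. The 6 are Aunip (0.78 ± 0.35, adjusted p = 0.0533), Tpx2 (-0.26 ± 0.12, adjusted p = 0.0525), Pttg1 (-0.28 ± 0.28), Bub3 (-0.15 ± 0.09), Bub1b (-0.08 ± 0.12) and Cdca8 (-0.02 ± 0.13). Each of these 6 had fallen in both fractions. As genes seem to be listed because they differ by genotype on polysomes, being listed already favours a call in this test. The largest interaction values were those of Anapc10 (-4.09 ± 0.48), Cenph (-3.46 ± 0.37), Ccnb1 (-2.46 ± 0.17) and Nusap1 (-2.005 ± 0.16). After the GC adjustment 8 were lower and 7 higher, against 22.6% and 16.9% of all genes. In WT alone, polysomal minus total RNA gave 1 lower gene, Cdc25b (-0.37 ± 0.05), and 0 higher of the 29 by edgeR, against 8.51% and 3.48% of all genes (12.0% either way). At an unadjusted p under 0.05 there were 5 higher, against 607 of all 5780 genes. By DESeq2 there was 1 higher and by limma-voom 3, against 4.29% and 7.98% of all genes. Without either dKO polysomal library, which changes the pooled spread, more were called higher, both among the 29 and over all genes. Summed over the 29 genes, polysomal RNA held 5118 and 5065 CPM in WT and 3042 and 3259 in dKO, and total RNA 3294 and 3325 in WT and 3023 and 3073 in dKO, each scaled within its own table. Of these 29 genes 28 lie below the gap described above, so a lower polysomal sum in dKO follows from the listing. The 17 genes without a row are not in these sums, which therefore do not compare the fractions for mitotic genes at large.

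Some counts may be shared with other genes. Transcripts of Ccnb1, Ndc80, Mad2l1 and Anapc10 match a pseudogene at 95% or more over at least 300 bases, 4 of them in the case of Ccnb1, so the values of these 4 genes are uncertain. Exons of Ccna2, Cdc25b, Cdc25c, Plk1, Nusap1, Kif20a, Cdca8, Prc1, Cdc20, Ube2c and Ncapg overlap a gene on the opposite strand, and the strand setting of the counting is not given in the sources used here. Exons of Ncapd2 overlap Scarna10 and Gm28967, and those of Top2a overlap Gm23451, on the same strand, so a strand setting would not separate them.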

How the data were processed

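RNA was isolated with Trizol and made into libraries with a directional NEBNext kit, per the labels' protocols. The submitters' processing notes list the tools FastQC, HTSeq and TopHat, and the genome builds mm9, mm10 and GRCm38. Versions, roles and the strand setting were not given in the sources used here. Raw read counts were deposited by the authors in 2 tables by gene symbol, 1 for total and 1 for polysomal RNA. Counts were tested with edgeR 4.0.16 (quasi-likelihood, TMM, filterByExpr, Benjamini-Hochberg) in R 4.3.3 on each whole table, with the 4 libraries of a fraction for genotype and all 8 for the interaction and the WT comparison; the SE is the absolute log2 fold change over the square root of F. CPM use TMM-scaled sums of each table.

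Alternatives were RLE, upper-quartile and library-sum scaling, DESeq2 1.42.0, limma-voom (limma 3.58.1), other filters, a replicate block, each library left out, and loess adjustments for GC and length with span 0.5. Lengths, GC and 3′ UTRs are those of GENCODE M21 (GRCm38); promoters and microRNAs are RefSeq's. The script was tested on simulated data. Members and lists were chosen with earlier results of these data known. Named genes were Lin28a and Lin28b, in each group up to 4 largest calls per fraction, every rise in total RNA and up to 2 most abundant genes without a call, and up to 3 genes a direction of each wider list with a mean of at least 5 CPM; others are named as a group's remainder.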

Additional observations from a re-analysis of the deposited data

Results flagged for a closer look

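For 23 of the 29 listed genes the genotype difference on polysomes differed from that in total RNA by the test of the difference itself (edgeR interaction over 8 libraries, adjusted p under 0.05). Of the cyclin-kinase genes these were Ccnb1 (-2.46), Ccnb2 (-0.77), Cdc25c (-0.55), Cdk1 (-0.33), Ccna2 (-0.28) and, in the other direction, Cdc25b (0.39). Of the spindle and kinetochore genes they were Cenph (-3.46), Nusap1 (-2.005), Spc25 (-1.49), Ect2 (-1.14), Ndc80 (-1.14), Nuf2 (-0.64), Cenpe (-0.59), Prc1 (-0.51) and Kif11 (-0.26). Of the checkpoint and anaphase genes they were Anapc10 (-4.09), Bub1 (-1.11), Ttk (-1.11) and Mad2l1 (-0.65), and of the chromosome structure genes Smc2 (-1.15), Smc4 (-0.76), Ncapg (-0.45) and Top2a (-0.37). All 29 stand in a table in which 89.5% of genes pass the same test. Genes seem to be listed there because they differ by genotype on polysomes. A gene that changed little in total RNA would therefore tend to pass by being listed. After the GC adjustment 8 of the 29 were lower and 7 higher, and the genes whose sign reversed are given below. The calls of Kif11, Nuf2, Ncapg and Cdc25c were lost in 5, 6, 5 and 2 of the 8 fits with 1 library left out. The value of Nuf2 lay between -1.2 and -0.28 with 1 polysomal dKO library left out.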

How the results depend on the processing

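In total RNA the falls among the 46 genes numbered 17 to 23 with 1 library left out, 17 by DESeq2, and 9 when all 8 libraries were fitted together, a fit that tests only the 29 genes of both tables. The rises numbered 1 by DESeq2, RLE scaling, library sums, no filter or only the genes of the polysomal table, 0 with all 8 libraries together, and 1 to 2 with 1 library left out. With the GC adjustment 26 genes fell in total RNA (17% of all genes). Upper-quartile scaling and a mean of at least 5 CPM each gave 3 rises (15.7% and 18.7% of all genes). On polysomes the falls went from 28 to 15 and the rises from 1 to 6 with the GC adjustment (27.1% and 19.0% of all genes). The falls went to 18 with the median of total RNA (33.3% of all genes), to 25 with RLE scaling (41.5%) and to 21 by DESeq2 (37.8%). Lower interaction values numbered 16 with RLE scaling (41.3%) and 17 by DESeq2 (39.7%). In the interaction the GC adjustment gave 8 lower and 7 higher, RLE scaling 2 higher, and leaving out 1 library 1 to 2 higher. In the WT comparison the genes higher on polysomes numbered 1 by DESeq2 (4.29% of all genes), 1 with the GC adjustment (5.22%) and 3 by limma-voom (7.98%). Without either dKO polysomal library more were called higher, also over all genes, and the cause was not tested.

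Libraries of equal replicate number showed little shared deviation (correlations of deviations from -0.0291 to 0.0523). With 2 libraries a group this cannot tell whether libraries share an embryo or a litter. With the replicate block 22 genes fell and 2 rose in total RNA, and 28 and 1 on polysomes. The same block gave 22 and 1 in the interaction, and 1 and 0 in the WT comparison.

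Signs reversed as follows. In total RNA the GC adjustment reversed Bub1 (-0.0631) and Smc4 (-0.00128), and leaving out 1 library gave ranges across 0 for Ttk (-0.216 to 0.0404, above 0 without dKO replicate 1), Cdc25c (-0.295 to 0.00335, above 0 without dKO replicate 2), Ccnb1 (-0.00258 to 0.0886, below 0 without WT replicate 1), Ccnb2 (-0.0721 to 0.00786, above 0 without WT replicate 1) and Bub1 (-0.0425 to 0.0636, below 0 without WT replicate 2), none of them called as reported. On polysomes the GC adjustment reversed Ccna2 (0.18), Cdc25b (-0.27), Bub3 (0.43), Top2a (0.27), Smc4 (0.32) and Ncapg (0.47), and the total RNA median reversed Ccna2 (0.00414). In the interaction the GC adjustment reversed Ccna2 (0.22), Cdc25b (-0.33), Bub3 (0.73), Pttg1 (0.23), Top2a (0.41), Smc4 (0.31) and Ncapg (0.66); RLE scaling reversed Cdca8 (0.106) and Bub1b (0.0482), as did DESeq2 (0.104 and 0.0498). There, leaving out 1 library gave -0.153 to 0.0938 for Cdca8 (above 0 without total RNA dKO replicate 2 or WT replicate 1, or polysomal dKO replicate 1 or WT replicate 1), -0.726 to 0.0137 for Pttg1 (above 0 without polysomal dKO replicate 1) and -0.153 to 0.0115 for Bub1b (above 0 without polysomal dKO replicate 2). Of the genes outside the naming rule, the GC adjustment reversed Kif11 (0.33), Mad2l1 (0.20), Cenpe (0.02) and Nuf2 (0.01) on polysomes and Kif11 (0.62), Mad2l1 (0.42), Nuf2 (0.23), Cenpe (0.22) and Prc1 (0.04) in the interaction, and in total RNA Kif23 (0.07 without dKO replicate 2), Anln (0.07 without WT replicate 1) and Spc24 (0.09 without WT replicate 2) reversed, none of these 3 called as reported. Among the values of genes under the naming rule that kept their sign, 71 lost and 11 gained a call. Depth limits Cenph (16 and 7 counts) and Anapc10 (1 and 12) on dKO polysomes.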

Other observations

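Cenph and Ccnb1, the largest and the third largest polysomal falls of the 29 genes, are neighbours: on GRCm38 (GENCODE M21) Cenph lies at chr13:100759674-100775899 and Ccnb1 at chr13:100778650-100786570, both on the minus strand with 2750 bases between them. This was looked up after their values were seen. Of the genes within 200 kb on either side, 9 including these were tested in total RNA and 6 on polysomes. Cenph and Ccnb1 prompted the look, so only the other 4 add to it. These 4 were below 0 on polysomes as reported, in a table where 52.5% of genes were called lower. The other 4 were Taf9 (-1.69), Ak6 (-1.45), Cdk7, the CDK-activating kinase (-0.95), and the checkpoint clamp loader gene Rad17 (-0.66), with 0.13 for Rad17, -0.61 for Taf9, -2.03 for Ak6 and -0.20 for Cdk7 after the GC adjustment. In total RNA none of these 4 was called (from -0.15 for Taf9 to 0.07 for Rad17).

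Some listed subunits of the anaphase-promoting complex went opposite ways on polysomes, also after the GC adjustment (second value). Anapc10 (-3.78 and -2.69) and Cdc27 (-1.56 and -0.49) were lower, and Anapc16 (1.06 and 1.02) and Anapc11 (1.04 and 0.48) higher. Anapc2 (0.79 and -0.03), Anapc5 (0.46 and 0.13), Anapc1 (-0.35 and 0.09), Cdc16 (-0.35 and -0.03) and Cdc23 (-0.40 and 0.01) were not called after it. Over all genes tested 27.1% were lower and 19.0% higher after it. Among centromere genes Cenph (-3.87 and -3.12), Cenpk (-3.05 and -1.72), Cenpq (-1.76 and -0.94) and Cenpn (-1.01 and -0.75) were lower and Cenpm (1.62 and 0.74) was higher. Cenpc1, Cenpe, Cenpi, Cenpl, Cenpp and Cenpw were not called after the adjustment.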
